A study of Mus musculus with 8 samples.

Results

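Retinoic acid is made from retinol inside cells, is carried by small binding proteins and acts through nuclear receptors, and 10 genes of this pathway were followed here in cultured mouse germline stem cells. They were the retinoic acid receptors Rara, Rarb and Rarg, the retinoid X receptors Rxra and Rxrb, the binding proteins Crabp1 and Crabp2, the retinoic acid hydroxylases Cyp26a1 and Cyp26b1, and the retinol dehydrogenase Rdh10. They were picked by symbol from the 31010 genes listed, and all 10 were found. Their mean level was at least 1 FPKM for 9 of the 10, as it was for 12000 genes in all. FPKM is the number of fragments per kilobase of gene, scaled to the size of the library. Rarb was the gene below that minimum.

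Germline stem (GS) cells are spermatogonia kept dividing in culture with the growth factors GDNF and FGF2. The 8 lines were wild type by their labels and came from F1 mice, named B6 in the sample titles, with 4 lines from mice of natural mating (control lines 29, 37, 44 and 45) and 4 from mice conceived by intracytoplasmic sperm injection (ICSI), that is, by placing a fresh sperm directly in the egg (ICSI lines 11, 17, 20 and 21). All were started from CD9-selected cells of mature testes and grown on embryonic fibroblast feeders, and plating on gelatin was used to take feeder cells out ahead of RNA extraction. By the study's methods, the ICSI sperm came from testes of green mice, which carry an Egfp transgene. Whether the lines carried it is not stated. Neither age nor litter was given for the F1 mice, so n counts lines and p-values measure the spread between lines only. Retinoic acid is not named among the additives of the growth medium in the labels, which were the same for both groups. The sample titles came in 2 styles, called title forms here. Each form covered 2 lines of each group. Lines 29, 37, 11 and 17 had titles of form 1, and lines 44, 45, 20 and 21 had titles of form 2. What the forms stand for is not stated, and they were treated as a possible batch.

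The libraries held 24710254 to 26664445 recovered reads in form 1 and 32358417 to 44279528 in form 2, so the forms also differed in depth. The 12 markers listed for undifferentiated spermatogonia, with the general germ cell genes Dazl and Ddx4 among them, were all above 0 in every line. Their sum was 748 to 1204 FPKM. The lines also held RNA of fibroblast markers. All 24 of these markers were above 0 in every line, and their sum was 373 to 1374 FPKM in the control lines and 429 to 903 FPKM in the ICSI lines. The sum was highest in control line 29, followed by control line 44. Leydig cell markers summed to at most 1.89 FPKM, with Cyp17a1 at 0 in every line. The 12 Sertoli cell markers summed to 46.8 to 119 FPKM, of which Ctsl alone was 38.4 to 109 FPKM, while Sox9 reached 5.46 FPKM, Wt1 reached 3.31 FPKM and Amh stayed at or below 0.0521 FPKM.

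Retinol is oxidised to retinal by Rdh10 and then to retinoic acid by aldehyde dehydrogenases. CRABP proteins bind retinoic acid in the cytoplasm, and CYP26 enzymes break it down. RAR proteins pair with RXR proteins on DNA and switch target genes when retinoic acid binds. In the testis, retinoic acid drives spermatogonia toward differentiation, with Stra8 and Kit among the genes that rise, and RARG is known from undifferentiated spermatogonia that can respond to it.

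RAR and RXR pairs often bind a direct repeat of a core motif with 5 bases between the copies, an arrangement called DR5. The core motif was taken as AGGTCA or as any of the close forms AGTTCA or else GGGTCA or else GGTTCA, and repeats were searched on both strands in RefSeq windows (GRCm38.p6) from 250 bases before to 50 bases after annotated transcript starts, with more than 1 window for some genes. Windows were found for 8 of the 10 genes. A DR5 was found in 32 of 32851 windows (0.0974%), and Rarb and Cyp26a1 were the genes among the 8 that held one. These 2 promoters are shown because they held a DR5, which capitals mark, and both are classical retinoic acid responsive promoters of the pathway. The forms searched for include those that make up these 2 repeats, so finding them is no test. The Rarb stretch is chr14:16575477-16575726 on the minus strand, and its DR5 lies 53 to 37 bases before the start. This start lies inside the Rarb locus as GENCODE gives it and not at its outer end. The Cyp26a1 stretch is chr19:37697558-37697807 on the plus strand, and its DR5 lies 32 to 16 bases before the start and reads in the opposite direction, as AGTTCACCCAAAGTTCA.
Rarb: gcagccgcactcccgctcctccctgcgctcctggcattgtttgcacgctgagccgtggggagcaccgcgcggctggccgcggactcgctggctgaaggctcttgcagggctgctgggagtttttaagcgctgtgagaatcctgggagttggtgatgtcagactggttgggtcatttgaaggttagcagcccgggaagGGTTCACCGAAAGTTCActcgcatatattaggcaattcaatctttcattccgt
Cyp26a1: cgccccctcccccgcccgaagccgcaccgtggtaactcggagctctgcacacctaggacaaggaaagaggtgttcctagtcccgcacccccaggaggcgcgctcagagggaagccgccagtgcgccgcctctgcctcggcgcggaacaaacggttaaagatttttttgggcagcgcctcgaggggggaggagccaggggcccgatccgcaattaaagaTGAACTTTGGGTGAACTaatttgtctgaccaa

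The same motifs 1 or 2 bases apart (DR1 and DR2) were in 0.222% and 0.268% of windows and in none of the 14 windows of these genes. These are matches of letters and not shown binding sites. The 2 genes that held a DR5 were the 2 with the lowest mean levels of the 10, at 0.0718 FPKM for Rarb and 1.11 FPKM for Cyp26a1.

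The 10 genes lie on 10 chromosomes, and their levels differed widely. Crabp1 stood above all others in every line, with a mean of 126.5 ± 28.9 FPKM (SD, n = 8), which put it at percentile 99.1 of the genes above 0. Rxra followed at 20.98 ± 1.81 FPKM. Rarg at 12.5 ± 4.46 FPKM, Rxrb at 10.5 ± 1.62 FPKM and Rara at 10.3 ± 1.43 FPKM came next and changed places between lines, since Rarg was above Rxrb in 5 of 8 lines and Rxrb above Rara in 5 of 8. Crabp2 had a mean of 6.60 ± 3.49 FPKM and was below Rara in 6 of 8 lines. Rdh10 at 1.85 ± 0.382, Cyp26b1 at 1.35 ± 0.681 and Cyp26a1 at 1.11 ± 0.169 FPKM formed a low group whose ranges overlapped. Rarb was last, and Cyp26a1, its neighbour in the order, was 10.2 to 40.5 times higher in the same line.

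**Figure D1:**
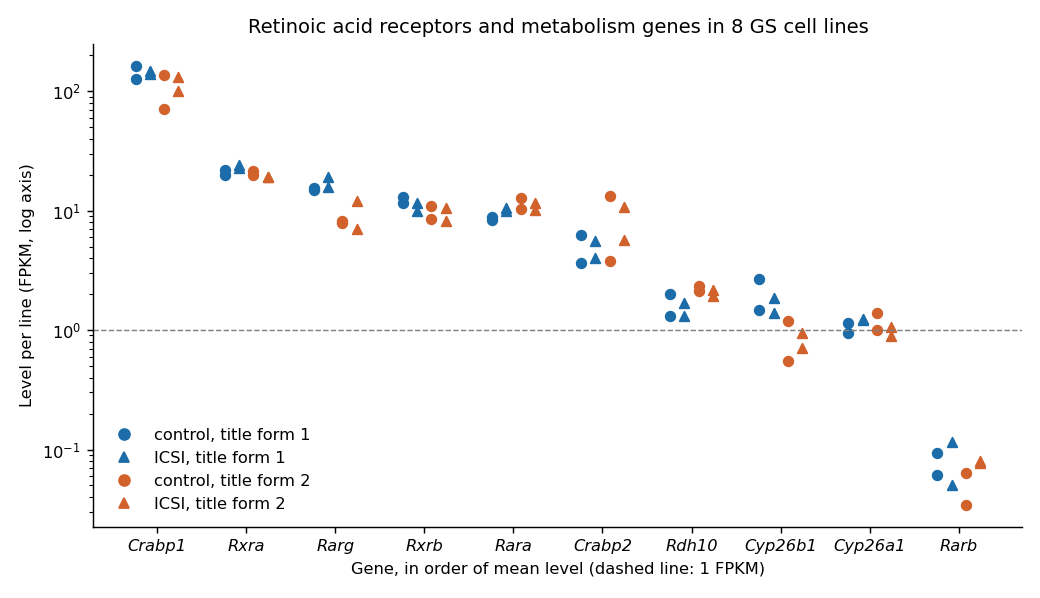
Level of each gene in each of the 8 GS cell lines, in FPKM on a log axis, with circles for control lines, triangles for ICSI lines and colours for the title forms. Crabp1 lies between 70.2 and 162 FPKM in every line and Rarb between 0.0344 and 0.115 FPKM, and control and ICSI points overlap for all 10 genes.

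Of the RAR genes, Rarg (chromosome 15, 102234938 to 102257517, minus strand, mm10) varied most between lines in FPKM. It was at 14.9 and 15.4 FPKM in control lines 29 and 37 and at 19.0 and 15.8 FPKM in ICSI lines 11 and 17. In control lines 44 and 45 it was at 7.80 and 8.13 FPKM, and in ICSI lines 20 and 21 at 7.01 and 11.9 FPKM. Control and ICSI lines overlapped, whereas the 4 lines of form 1 were all above the 4 lines of form 2. The counts behind these values were 925 to 2132 reads per line, so counting error was small beside the spread.

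Rara (chromosome 11, 98927818 to 98974942, plus strand), the receptor that is expressed broadly in tissues, was steadier. It was at 8.29, 8.89, 12.8 and 10.3 FPKM in control lines 29, 37, 44 and 45 and at 10.5, 9.92, 10.15 and 11.6 FPKM in ICSI lines 11, 17, 20 and 21. The ICSI lines lay within the range of the control lines. The annotation places the short gene Gm22061 within Rara on the same strand.

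The ratio of Rarg to Rara was 1.59 to 1.80 in the 4 lines of form 1 and 0.608 to 1.03 in the 4 lines of form 2. Rarg was thus the more abundant RAR transcript in every line of form 1 and, in form 2, in ICSI line 21 alone. It made up 63.1% ± 1.40 (SD, n = 4) of the summed RAR level in form 1 and 43.2% ± 5.53 (n = 4) in form 2. The ratio differed between the forms by an exact two-sided permutation test (p = 0.0286, the smallest that 70 assignments allow), and its difference between ICSI and control lines gave p = 0.771. Any quantity whose forms do not overlap gives p = 0.0286 in this exact test, and 26.8% of the genes tested had forms that did not overlap. The summed level of the 3 RAR genes was 23.2 to 29.6 FPKM in form 1 and 17.2 to 23.6 FPKM in form 2 (exact permutation p = 0.0571). These p-values are not adjusted for the 9 sums and ratios computed, and the sums and ratios were chosen with the values known.

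**Figure D2:**
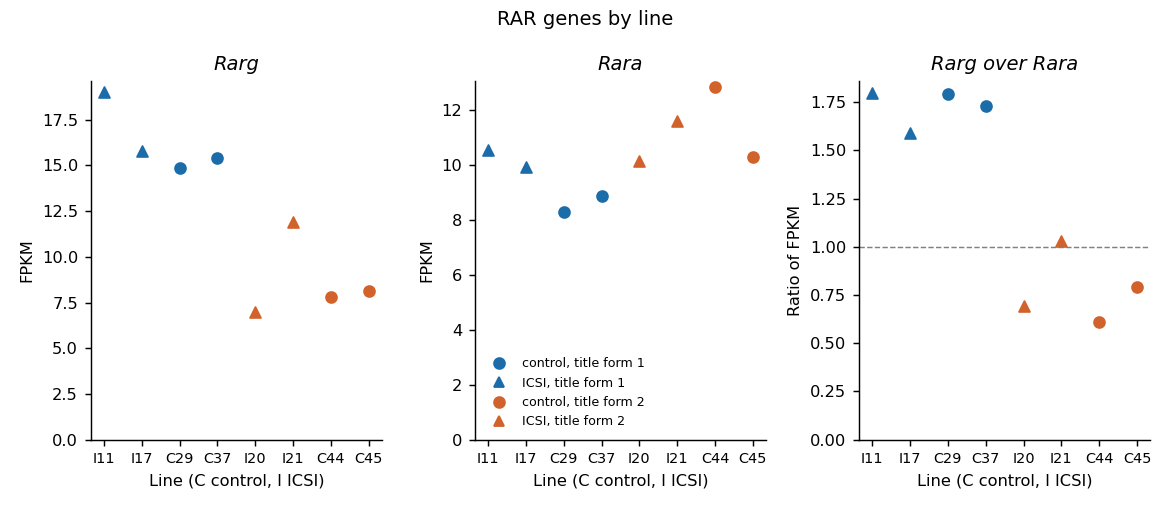
Rarg and Rara in FPKM and their ratio, each point 1 line, with circles for control lines, triangles for ICSI lines, colours for title forms and a dashed line at a ratio of 1. The ratio is 1.59 to 1.80 in form 1 and 0.608 to 1.03 in form 2, and each range holds lines of both groups.

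Rarb (chromosome 14, 16430839 to 16819156, minus strand), whose transcript often rises in cells exposed to retinoic acid, was close to the limit of detection. Its level was 0.0933, 0.0609, 0.0638 and 0.0344 FPKM in control lines 29, 37, 44 and 45 and 0.0505, 0.115, 0.0797 and 0.0771 FPKM in ICSI lines 11, 17, 20 and 21. These values rest on 7 to 17 reads per line and 91 reads in all, against 0.0129 to 0.0228 FPKM for the 3 reads that a count of 0 allows. Such limits cover counting error only. The gene overlaps Top2b and Gm48162, both annotated on the opposite strand, and the 2 library kits named in the sources leave strand use uncertain, so reads of these genes cannot be told apart from its own. Rarb contributed 0.171% to 0.462% of the summed RAR level.

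Of the RXR partners, Rxra was the steadiest of the 10 genes by the ratio of its highest to its lowest line. Rxra (chromosome 2, 27676440 to 27762957, plus strand) was at 19.7, 21.65, 19.9 and 21.3 FPKM in control lines 29, 37, 44 and 45 and at 24.2, 22.7, 19.1 and 19.3 FPKM in ICSI lines 11, 17, 20 and 21. Its highest line was 1.27 times its lowest. Rxrb (chromosome 17, 34031812 to 34038399, plus strand) was at 13.0, 11.5, 8.56 and 11.0 FPKM in those control lines and at 11.7, 9.95, 8.12 and 10.5 FPKM in those ICSI lines, and its groups overlapped. The sum of both was 33.6 ± 1.53 FPKM in form 1 and 29.5 ± 2.18 FPKM in form 2 (exact permutation p = 0.0286, as for any quantity whose forms do not overlap). The sum of Rxra and Rxrb was 1.21 to 1.75 times the summed RAR level in each line. It leaves out Rxrg, which had a mean of 2.1 FPKM over all lines.

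Crabp1 (chromosome 9, 54764748 to 54773110, plus strand), which holds retinoic acid in the cytoplasm, was at 162, 127, 136 and 70.2 FPKM in control lines 29, 37, 44 and 45. It was at 139, 147, 131 and 99.7 FPKM in ICSI lines 11, 17, 20 and 21, all within the control range. Crabp2 (chromosome 3, 87948666 to 87953376, plus strand), which passes retinoic acid on to the RAR proteins, was at 6.29, 3.67, 13.2 and 3.75 FPKM in the control lines and 4.00, 5.56, 10.65 and 5.68 FPKM in the ICSI lines, in the same orders. Its highest line was 3.59 times its lowest. Crabp1 was 10.3 to 34.8 times Crabp2, at 30.4 ± 4.94 in form 1 and 14.7 ± 4.07 in form 2 (n = 4 each). The exact permutation p was 0.0286, as for any quantity whose forms do not overlap.

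Both binding proteins followed the fibroblast markers in rank. Within form 1 the marker sum and the levels of Crabp1 and Crabp2 all fell in the order control line 29, ICSI line 17, ICSI line 11, control line 37. Within form 2 all 3 fell in the order control line 44, ICSI line 20, ICSI line 21, control line 45. Cyp26b1 was also highest in control line 29 within form 1 (2.67 FPKM) and in control line 44 within form 2 (1.18 FPKM). Its lines 37 and 11, and its lines 21 and 20, stood in the reverse order. Rdh10 was highest in control line 29 within form 1 (2.00 FPKM) but in control line 45 within form 2 (2.31 FPKM). In RNA of whole cultures, fewer cells of a type and less RNA per cell cannot be told apart, and the part of the feeder cells in these levels was not tested.

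**Figure D3:**
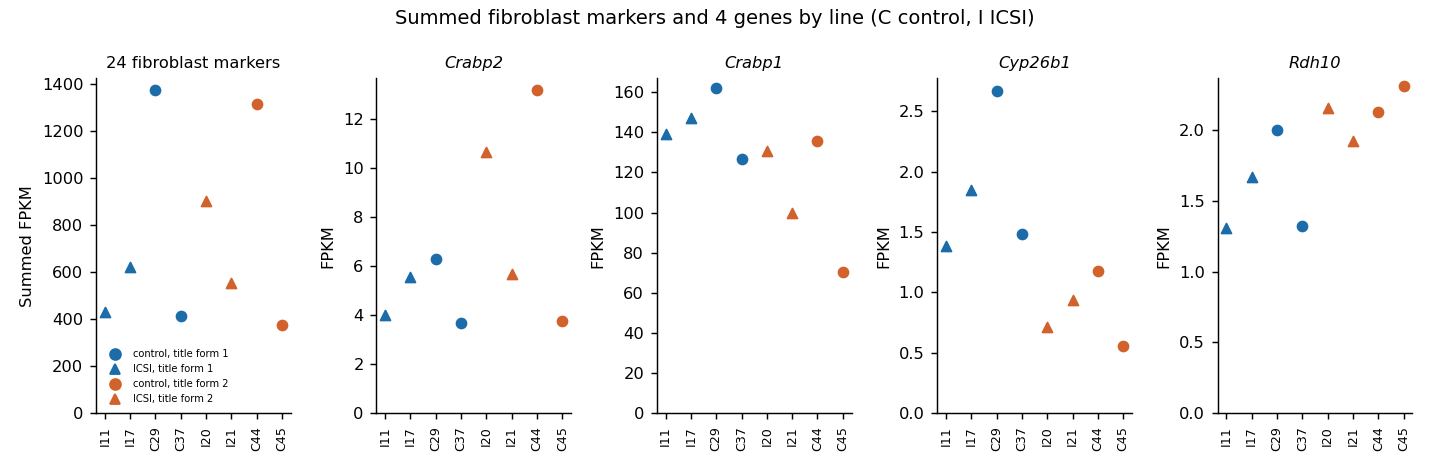
Summed FPKM of 24 fibroblast markers and the FPKM of Crabp2, Crabp1, Cyp26b1 and Rdh10 in each line, with circles for control lines, triangles for ICSI lines and colours for title forms. Control lines 29 and 44 hold the largest marker sums, at 1374 and 1316 FPKM, and are the highest lines of their form for Crabp1, Crabp2 and Cyp26b1.

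The hydroxylases that remove retinoic acid were both low. Cyp26a1 (chromosome 19, 37697798 to 37701536, plus strand) was at 0.952, 1.15, 1.00 and 1.39 FPKM in control lines 29, 37, 44 and 45 and 1.25, 1.22, 1.06 and 0.892 FPKM in ICSI lines 11, 17, 20 and 21, from 50 to 122 reads per line. Cyp26b1 (chromosome 6, 84571414 to 84593908, minus strand) was at 2.67, 1.48, 1.18 and 0.554 FPKM in the control lines and 1.39, 1.85, 0.712 and 0.937 FPKM in the ICSI lines. It spanned a 4.81-fold range, and the lines of form 1 were all above those of form 2. Rdh10 (chromosome 1, 16105774 to 16133734, plus strand), the enzyme of the first oxidation step, was at 2.00, 1.32, 2.13 and 2.31 FPKM in the control lines and 1.31, 1.67, 2.16 and 1.92 FPKM in the ICSI lines.

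The question of the study's design is whether GS cells of ICSI offspring differ from those of natural mating. None of the 10 genes separated the groups, since the ranges of ICSI and control lines overlapped for each of them, and 0.442% of the 12000 genes tested had ranges that did not overlap. In the limma fit 0 of the 9 genes tested passed an adjusted p of 0.05, as did 0 of all 12000 (0%), and an unadjusted p under 0.05 was reached by 0 of the 9 and by 55 of all genes (0.458%). The count of 55 moved with the setting, for instance to 140 with the title form as covariate, 225 without control line 44, 97 without control line 45, 382 without ICSI line 20, 30 without ICSI line 17 and 390 with no filter. With limma-voom on the recovered reads, 0 genes passed and 50 had an unadjusted p under 0.05.

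The differences between ICSI and control lines were small for the receptors. Rarg had a mean of 13.4 ± 5.17 FPKM in ICSI lines and 11.6 ± 4.14 FPKM in control lines, a log2 difference in (FPKM + 1) of 0.18 with a 95% interval of -0.52 to 0.89. Rara was at 10.55 ± 0.738 against 10.1 ± 2.02 FPKM, a log2 difference of 0.08 (-0.23 to 0.39). Rxra differed by 0.04 (-0.20 to 0.28) and Rxrb by -0.11 (-0.45 to 0.22) on the same scale. The intervals of Rara, Rxra and Rxrb thus stayed within 0.45 on either side of 0, whereas that of Rarg was wider. With the title form as covariate the Rarg interval narrowed to -0.15 to 0.52 around the same 0.18, with an adjusted p of 1 in limma. Its difference was close to 0 without ICSI line 11 (0.00035) and 0.44 without ICSI line 20.

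For the remaining genes the intervals also held 0. The log2 difference was 0.11 (-0.44 to 0.66) for Crabp1 and 0.04 (-0.80 to 0.88) for Crabp2. It was -0.01 (-0.30 to 0.27) for Cyp26a1, -0.11 (-0.71 to 0.48) for Cyp26b1 and -0.09 (-0.44 to 0.27) for Rdh10. The widest of these intervals was that of Crabp2, so its difference was the least precisely measured of the 9. Without control lines 29 and 44, the lines with the highest fibroblast sums, the difference was 0.59 for Crabp2 and 0.43 for Crabp1, with adjusted p of 1 in limma. Rarb, which was not in the fit, had means of 0.0805 ± 0.0263 FPKM in ICSI and 0.0631 ± 0.0241 FPKM in control lines (exact permutation p = 0.343). The same exact test gave p-values from 0.457 for Rxrb to 0.943 for Crabp2 for the other 9 genes.

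Within the title forms, Rarg differed between ICSI and control lines by 0.19 in form 1 and 0.18 in form 2 on the log2 scale. Rxra was higher in ICSI lines in form 1 (0.17) and lower in form 2 (-0.10), and Rara (0.23 and -0.08) and Cyp26a1 (0.12 and -0.15) did likewise. In the test of whether the ICSI difference itself differed between forms (limma interaction term), 0 of the 9 genes and 0 of 12000 (0%) passed, with adjusted p of 1 for each of the 9. An unadjusted p under 0.05 was reached by 147 genes (1.23%), none of them among the 9, and limma-voom also called 0, with 110 at an unadjusted p under 0.05.

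The title forms differed in 2 of the 9 genes, Rarg and Cyp26b1, both lower in form 2. In the limma fit with the group as covariate, 1917 of 12000 genes (16.0%) passed, of which 1226 (10.2%) were higher and 691 (5.76%) lower in form 2. The count of 2 in 9 was near that background. Rarg fell from 16.3 ± 1.88 FPKM in form 1 to 8.72 ± 2.20 FPKM in form 2 (n = 4 each), a log2 difference of -0.85 ± 0.15 (SE, adjusted p = 0.0134). It was lower in all 4 lines of form 2 than in any line of form 1, as was true of 10.8% of the genes tested (26.8% had forms that did not overlap in either direction). The title form took 80.8% of the variance of Rarg on the log2 scale, against a median of 33.8% over all genes tested.

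The Rarg difference stayed between -0.71 and -0.99 when 1 line was left out, and its call was lost in some of these fits. Without control line 37 the log2 difference was -0.84 with adjusted p = 0.0528, and without ICSI line 11 it was -0.80 with adjusted p = 0.0556. Without control lines 29 and 44, which had the highest fibroblast sums, it was -0.85 with adjusted p = 0.0584. Leaving out any other single line gave adjusted p of 0.00548 to 0.0407.

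Cyp26b1 fell from 1.85 ± 0.583 FPKM to 0.846 ± 0.273 FPKM, a log2 difference of -0.62 ± 0.17 (SE, limma adjusted p = 0.0448). The size depended on the scale, at -1.04 and -1.12 with pseudocounts of 0.1 and 0.01, -0.97 in TPM and -1.16 in limma-voom. The call was close to the threshold. It was kept without ICSI line 21 (adjusted p = 0.0418) and lost without each of the other 7 lines, with adjusted p of 0.0687 to 0.118. Without control lines 29 and 44 the log2 difference was -0.57 with adjusted p = 0.069.

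Other properties of the cultures moved with the forms too. The sum of the 12 markers listed for undifferentiated spermatogonia was 748 to 891 FPKM in form 1 and 1024 to 1204 FPKM in form 2. Its largest parts were Dazl, at 257 to 302 and 365 to 420 FPKM, and Ddx4, at 173 to 203 and 230 to 274 FPKM. Both are general germ cell genes, so the sum does not measure the undifferentiated state alone. Etv5, Id4, Gfra1 and Sall4 were also higher in each line of form 2. Of all genes tested, 26.8% had forms that did not overlap in either direction. Pou5f1 went the other way, at 18.0 to 28.2 and 11.2 to 16.6 FPKM, and Zbtb16, Nanos2, Nanos3, Lin28a and Ret overlapped. The sum of 9 differentiation markers overlapped, at 307 to 365 and 311 to 381 FPKM, but single genes moved in opposite directions. Sycp3 was higher in each line of form 2, at 67.7 to 92.4 and 110 to 136 FPKM. Kit was lower in each, at 5.9 to 9.56 and 2.4 to 5.31 FPKM, as was Sohlh1. Rec8, Spo11, Sohlh2, Dmrtb1, Stra8 and Prdm9 overlapped. The 7 macrophage markers summed to 29.7 to 52.1 FPKM in form 1 and 14.2 to 22.6 FPKM in form 2, with Lyz2 at 19.2 to 44.1 and 3.36 to 13.2 FPKM. Without Lyz2 the other 6 overlapped, at 6.83 to 10.6 and 5.88 to 19.2 FPKM. The 5 endothelial markers summed to 2.60 to 5.81 FPKM in form 1 and 5.84 to 9.28 FPKM in form 2, ranges that nearly touch. Of these markers only Kdr kept the forms apart, at 0.226 to 0.731 and 1.37 to 2.93 FPKM. Pecam1, Cdh5, Tek and Emcn overlapped. The fibroblast sums overlapped, at 412 to 1374 FPKM in form 1 and 373 to 1316 FPKM in form 2. The part of cell makeup, of depth and of whatever the title forms stand for in the Rarg and Cyp26b1 differences was not tested.

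The other 7 genes did not pass between the forms. Rdh10 had a log2 difference of 0.29 (95% interval 0.01 to 0.57, adjusted p = 0.128) and Rara of 0.23 (-0.02 to 0.48, adjusted p = 0.17). For Crabp2 it was 0.56 (-0.21 to 1.33, adjusted p = 0.269), with the widest interval of the 9 genes. Crabp1 had a difference of -0.44 (-0.89 to 0.02, adjusted p = 0.156), which after quantile normalization was -0.63 with adjusted p = 0.0363. Rxrb was at -0.25 (adjusted p = 0.171), Rxra at -0.14 (adjusted p = 0.286) and Cyp26a1 at -0.04 (adjusted p = 0.832). The form took 3.74% of the variance of Cyp26a1, the lowest share of the 9.

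**Figure D4:**
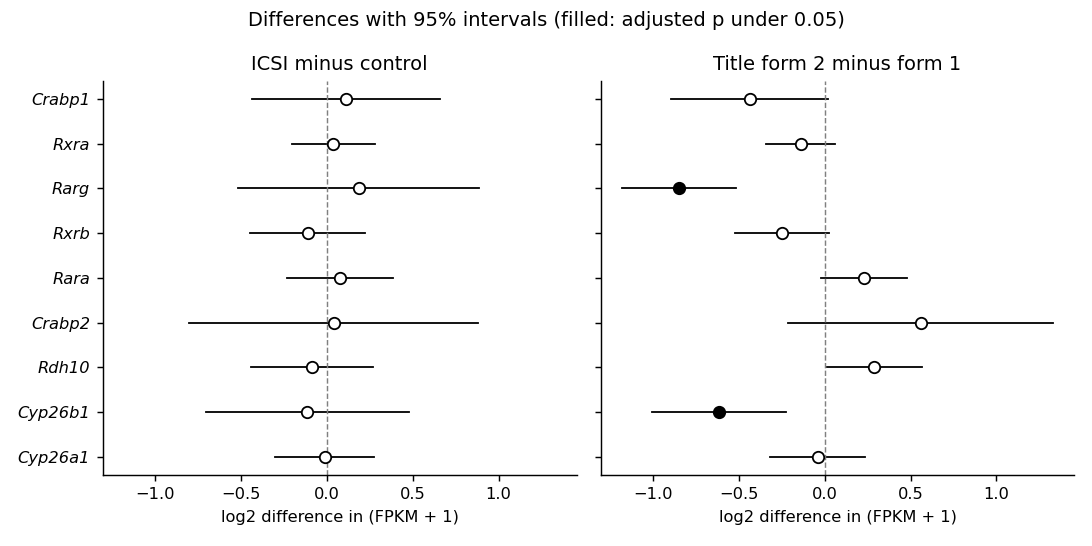
Log2 difference in (FPKM + 1) of the 9 genes tested, with 95% intervals, for ICSI minus control lines (left) and title form 2 minus form 1 (right), where a filled point has an adjusted p under 0.05 in limma. All intervals on the left hold 0, and on the right Rarg at -0.85 and Cyp26b1 at -0.62 are filled.

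Of 67 other genes of the pathway listed by role, 66 were found and 42 reached the minimum mean level. None passed between ICSI and control lines. In limma, 1 of the 42 had an unadjusted p under 0.05, as did 55 of all 12000 genes (0.458%). The 1 gene of the 42 was Rbp4, the carrier of retinol in blood, at 8.88 ± 2.36 FPKM in ICSI and 6.30 ± 0.958 FPKM in control lines (log2 difference 0.42, limma adjusted p = 1, unadjusted 0.0482). Its groups overlapped, with ICSI line 20 at 6.2 FPKM and control line 29 at 7.31 FPKM. Second by its unadjusted value was Prame, a repressor of RAR signalling, at 1.97 ± 0.381 against 1.44 ± 0.291 FPKM (limma adjusted p = 1, unadjusted 0.0819). The median log2 difference of the 42 genes was 0.02, and that of all genes tested was -0.01.

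Between the title forms 5 of the 42 genes passed (11.9%, against 16.0% of all genes), with 3 higher and 2 lower in form 2. The median of the 42 was 0.05 and that of all genes tested 0.03. Under retinol uptake and storage, synthesis and partner receptors, none of the 3, 6 and 5 tested genes passed. Cyp1b1, the 1 tested gene listed under catabolism, did not pass either. Of 16 coregulators, Tbl1xr1, a subunit of the NCoR corepressor complex, was higher in form 2 (9.72 ± 0.886 to 13.5 ± 1.37 FPKM, log2 difference 0.44, adjusted p = 0.0303).

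Of 12 tested targets and regulators of the retinoic acid response, 4 passed (33.3%, against 16.0% of all genes). This was the highest share among the roles listed, over few genes. Tgm2, a transglutaminase that retinoic acid induces in many cells, fell from 1.84 ± 0.298 to 0.765 ± 0.146 FPKM (-0.69, adjusted p = 0.0155). Kit, the receptor of differentiating spermatogonia, fell from 7.73 ± 1.57 to 4.08 ± 1.25 FPKM (-0.80, adjusted p = 0.0351). Rarres1 rose from 0.559 ± 0.158 to 1.68 ± 0.718 FPKM (0.75, adjusted p = 0.0338), and Sall4, a transcription factor of undifferentiated spermatogonia, from 28.8 ± 2.94 to 38.4 ± 4.45 FPKM (0.40, adjusted p = 0.0411). The 4 did not share a direction. Stra8 was at 27.8 FPKM in form 1 and 14.2 FPKM in form 2 and did not pass (-1.07, adjusted p = 0.105), and it was named after its values were seen. Of the others that did not pass in limma, Dhrs3 (0.65, adjusted p = 0.0751), Dmrtb1 (0.45, adjusted p = 0.0748), Sohlh2 (0.29) and Dmrt1 (0.02) were higher in form 2. Lower in form 2 were Sohlh1 (-0.41, adjusted p = 0.0867), Rarres2 (-0.26) and Rec8 (-0.04).

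**Figure D5:**
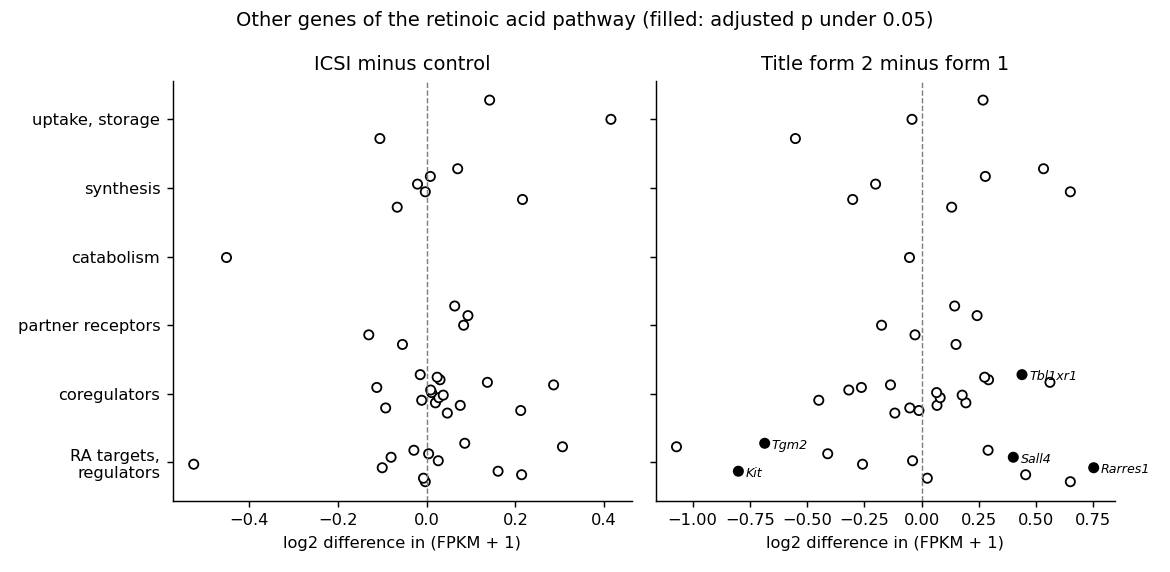
Log2 difference in (FPKM + 1) of the 42 other pathway genes tested, by listed role. The left panel is ICSI minus control lines and the right panel title form 2 minus form 1. A filled point has an adjusted p under 0.05 in limma. Dhrs3 was listed under both synthesis and targets, which are labels of the list and not tested roles. No point is filled on the left, and Tbl1xr1, Rarres1, Sall4, Tgm2 and Kit are filled on the right.

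The pathway list also gave the levels of the neighbouring steps. Aldh1a2, which turns retinal into retinoic acid, had a mean of 10.8 ± 3.39 FPKM over control lines and of 12.4 ± 1.43 FPKM over ICSI lines, and Adh5, an alcohol dehydrogenase, at 20.7 ± 0.967 and 19.8 ± 2.95 FPKM. Of the cytochrome P450 genes listed under catabolism, Cyp1b1 was at 4.72 ± 3.58 and 2.77 ± 1.41 FPKM and Cyp2s1 at 0.346 ± 0.0951 and 0.335 ± 0.0544 FPKM. That heading is a label of the list, and what these enzymes do with retinoids in these cells was not tested. Cyp1b1 was highest in control lines 29 and 44, at 9.36 and 5.73 FPKM. Aldh1a2 was thus well above Rdh10 and both CYP26 genes in FPKM in every line. Among the other binding proteins and receptors, Rbp7 was at 2.97 ± 1.34 and 3.22 ± 0.335 FPKM, Nr6a1 at 6.15 ± 1.41 and 6.53 ± 1.07 FPKM, and Ppard at 3.76 ± 1.10 and 3.98 ± 0.102 FPKM in control and ICSI lines. The highest coregulators by mean were Pramel1 at 96.6 FPKM and Sin3a at 75.4 FPKM over all lines, and the highest targets and regulators were Dmrt1 at 159 FPKM and Sohlh1 at 120.0 FPKM. None of these 4 passed between the title forms (adjusted p of 0.0623, 0.0632, 0.914 and 0.0867).

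For each of the 9 genes, the gene with the most similar log2 level across the 8 lines was found by Pearson r, as a description. Rarg was most like Ndrg4 (r = 0.994), Rara most like Zfp597 (r = 0.986) and Rxrb most like Ing4 (r = 0.984). Rxra was most like Taok3 (r = 0.926), the lowest of these. Crabp1 was most like Gm2115 (r = 0.952), Crabp2 most like Il13ra1 (r = 0.990), Cyp26a1 most like Patj (r = 0.940), Cyp26b1 most like Gm19412 (r = 0.976) and Rdh10 most like Tefm (r = 0.969). The 8 lines share the title forms and their depths, and each of these values is the highest of many over few points.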

How the data were processed

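RNA-seq was measured in 8 GS cell lines (4 control, 4 ICSI). The authors trimmed 76-base single reads (cutadapt 3.4), mapped them to mm10 (STAR 2.7.9a), counted them per gene (htseq-count, HTSeq 0.13.5) and deposited FPKM values. The kit named in the labels is not the one in the methods, so strandedness is uncertain. The deposited log2 fold change and adjusted p-value columns, from the authors' own DESeq2 1.30.1 comparison, were not used.

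Low FPKM values came in steps worth 1 read, which gave back whole reads for 99.97% of the 23964 genes above 0 (within 0.02 reads). For 414 of these, Rxra included, the gene length was searched for, as that of the annotation did not give whole reads. One read in 1 kb was worth 0.0227 to 0.0401 FPKM. Genes whose mean reached 1 FPKM were tested with limma 3.58.1 in R 4.3.3 (lmFit, eBayes with trend) on log2(FPKM + 1). The tests were two-sided, with p-values adjusted over all 12000 genes (Benjamini-Hochberg) and a threshold of 0.05. The pseudocount of 1 understates changes of low genes. The group was the only term, since the study states no covariate. The title form fit kept the group as covariate, and a further fit held their interaction. Single genes had an exact two-sided permutation test over 70 assignments (smallest p 0.0286), with no adjustment over the 10 genes.

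Alternatives were pseudocounts of 0.1 and 0.01, other filters, rescaling to TPM, median-of-ratios and quantile scaling, limma-voom on recovered reads, and leaving out lines. Positions came from GENCODE annotation of GRCm38, the assembly of mm10, in an earlier release than the authors counted on. The genes, the pathway and marker lists and the title form comparison were chosen with earlier results of these data known. Pathway genes named were, by rule, the 2 with the highest mean per role, those passing between title forms, and the 2 with the smallest p between groups. Stra8, Dhrs3, Dmrtb1, Sohlh2, Rarres2 and Rec8 were named outside this rule.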

Additional observations from a re-analysis of the deposited data

Results flagged for a closer look

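No value of the 10 genes stood apart from its group. The 10 genes, the pathway genes named by rule and the summed fibroblast markers gave 58 groups of 4 lines. Of these, 4 held 1 line far from the other 3, with a gap above Dixon's 95% critical value, and about 1 in 20 groups does so by chance. The summed fibroblast markers were not among the 4. Aldh1a2 was at 15.8 FPKM in control line 29 and at 8.73 to 9.68 FPKM in the other control lines. Adh5 was at 24.2 FPKM in ICSI line 20 and at 17.9 to 18.9 FPKM in ICSI lines 11, 17 and 21. Control line 37 was high for Cyp2s1, at 0.487 FPKM against 0.289 to 0.315 FPKM, and for Dmrt1, at 171 FPKM against 152 to 155 FPKM. Control line 29 was also the line with the highest fibroblast marker sum, and its part in the Aldh1a2 value was not tested.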

How the results depend on the processing

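No paired analysis was possible because the control and ICSI lines share no replicate numbers. Between ICSI and control lines, 1 gene passed with no filter on low values and 0 under every other alternative, leaving out lines included. Between title forms the count of 1917 was 1255 with no filter, 401 without control lines 29 and 44 (an alternative chosen after seeing the data), and 210 to 2691 when 1 line was left out. It was under 1917 divided by 1.5 without any 1 line but ICSI line 21, and lowest without ICSI line 11. Of the calls, 64% were higher in form 2, against 51.2% after quantile normalization. The interaction count stayed at 0 under each alternative.

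Rarg passed between title forms under each pseudocount, filter, scaling and limma-voom (log2 difference -0.85 to -0.96, adjusted p up to 0.0305). Cyp26b1 did not pass with no filter (adjusted p = 0.0905) or after quantile normalization (0.056). Cyp26a1, which did not pass, changed sign between forms after quantile normalization (0.057) and ranged from -0.12 to 0.010 when 1 line was left out.

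None of the 9 genes passed between ICSI and control lines under any alternative, and 6 changed sign when 1 line was left out. Their log2 differences then ranged from -0.14 to 0.26 for Crabp1, from -0.20 to 0.38 for Crabp2, from -0.053 to 0.045 for Cyp26a1, from -0.31 to 0.10 for Cyp26b1, from -0.0033 to 0.19 for Rara and from -0.023 to 0.085 for Rxra. The other 3 kept their sign but ranged from 0.00035 to 0.44 for Rarg, from -0.22 to -0.023 for Rxrb and from -0.20 to -0.0016 for Rdh10. Without control lines 29 and 44, Rxra was at -0.018 and Cyp26b1 at 0.15, Crabp2 moved from 0.04 to 0.59, Crabp1 from 0.11 to 0.43, Rara to 0.13, Cyp26a1 to -0.11 and Rdh10 to -0.014. The number of lines limits these comparisons, and depth limits Rarb, which was at 7 to 17 reads.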
